A study of Mus musculus with 16 samples.

Results

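The 8 genes described here belong to neuropeptide systems of the lateral hypothalamus and neighbouring areas: the peptide genes Hcrt, Pmch, Qrfp, Nts and Npvf and the receptor genes Hcrtr1, Hcrtr2 and Mchr1. They were taken by name, as every non-control probe that the array files assign to 1 of these 8 symbols, which gave 10 of the 55681 probes on the array. Hcrt and Hcrtr1 had 2 probes each. Hypothalamus RNA of 16 mice, 8 KO chimeras and 8 control animals, was read on 1-colour Agilent arrays, 1 animal on each.

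KO chimeras were made from lethally irradiated C57BL/6J mice (950 Rad), which then received, in 1 injection behind the eye, whole bone marrow of the strain Adrb1tm1BkkAdrb2tm1Bkk/J, which lacks the beta-1 and beta-2 adrenergic receptors. Donor strain and C57BL/6J are put at a ratio of 1 to 4 in the labels, which leave unsaid whether this is how many recipients 1 donor served or how marrow of both strains was mixed, and recovery lasted 2 to 3 months before tissue was taken. The marrow donor's deletion is carried by those blood-derived cells that stem from this strain, while the host's own brain cells keep both receptor genes. The share of such blood-derived cells was not read from these data. The strain field reads irradiated C57BL/6J for the control animals as well, and the treatment text stands on all 16 labels, but only the KO chimeras have an entry for the source of marrow, so what the control animals received is not settled. Age and sex are not in the labels. The comparison asks whether the brain differs in mice given marrow of this strain.

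Orexin neurons, which make Hcrt, and melanin-concentrating hormone (MCH) neurons, which make Pmch, are neighbouring but separate cells of the lateral hypothalamus that project through most of the brain. Orexins act on the receptors encoded by Hcrtr1 and Hcrtr2 and hold the animal awake, and loss of orexin neurons causes narcolepsy. MCH acts in mice on the receptor encoded by Mchr1 and is known for its part in sleep and feeding. Nts encodes neurotensin, Npvf the RFamide-related peptides of the dorsomedial hypothalamus, and Qrfp a further RFamide peptide of the hypothalamus.

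The probes are 60 bases long, and the array reports the part of each mRNA that a probe matches. Positions are those in the array files, in mm9. The last 30 bases of both Hcrt probes are shown because their differences between groups had opposite signs, with the polyadenylation signal AATAAA in capitals. Probe A (A_55_P2142341) lies at chr11:100623007-100623066 on the minus strand and probe B (A_55_P2110316) at chr11:100622484-100622543, 463 bases further on in the gene's direction.
Hcrt probe A: cAATAAAgacgattctctgttggtgtgact
Hcrt probe B: cagagtccacctggcaagggctggatgtaa
AATAAA stands once in probe A, while probe B lies beyond it and was designed on another transcript model. The same 6 letters occur in 10.1% of all 55681 probes of this length. Both Hcrtr1 probes (A_55_P2155946 at chr4:129807461-129807520 and A_55_P1963965 at chr4:129807469-129807528, minus strand) share 52 bases and so are not independent readings. Their first 30 bases are shown with the shared letters in capitals.
Hcrtr1 probe A: ATTCGTTCAGCATGGAGGCCAGCAGCCCGG
Hcrtr1 probe B: atgtggccATTCGTTCAGCATGGAGGCCAG
The Nts probe (A_51_P485756, chr10:101944967-101945026, minus strand) lies in the coding part of the mRNA, over the end of neurotensin itself, and is shown whole. Its capitals mark pairs of codons for basic residues, the first within the peptide and the second at the cleavage site that follows it.
Nts: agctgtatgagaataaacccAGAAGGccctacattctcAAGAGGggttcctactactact
The other probes lie at chr10:87555031-87555090 on the plus strand for Pmch (A_52_P418814), chr6:50602494-50602553 on the minus strand for Npvf (A_55_P1991310), chr2:31661691-31661750 on the minus strand for Qrfp (A_55_P2021861), chr9:76073799-76073858 on the minus strand for Hcrtr2 (A_51_P380069) and chr15:81068481-81068540 on the plus strand for Mchr1 (A_55_P2021146). An annotation of exons and UTRs in mm9 was not used here.

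No peptide or receptor gene differed between KO chimeras and control animals at an adjusted p under 0.05 (limma, adjusted over all 35144 probes tested). Tested probes were those that stood well above background in 8 or more of the 16 animals, which 8 of the 10 probes were, for 7 of the 8 genes. Over the whole array 908 probes were called, or 2.58% of those tested, 0.794% higher and 1.79% lower in KO chimeras, and the 0 of 8 called here lies close to that background. At an unadjusted p under 0.05 the count was 1 of 8 (Hcrtr2), against 20.0% of all probes tested. A two-sided exact permutation test, which goes through every way of splitting the animals 8 and 8 and is unadjusted here, gave a p under 0.05 for 2 of 9 probes, Hcrtr2 and Hcrt probe B. The groups overlapped on all 10 probes, where 0.839% of the tested probes had groups that did not overlap. The difference was above 0 for 5 of the 8 tested probes and below 0 for 3, with a median of 0.11, against 53.9% above 0 and a median of 0.02 over all tested probes. The split of the 908 calls into higher and lower depends on the scaling: 30.7% were higher here, 5.3% of 4509 when arrays were aligned at their median, and 10.3% of 213 with normexp background correction.

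**Figure D1:**
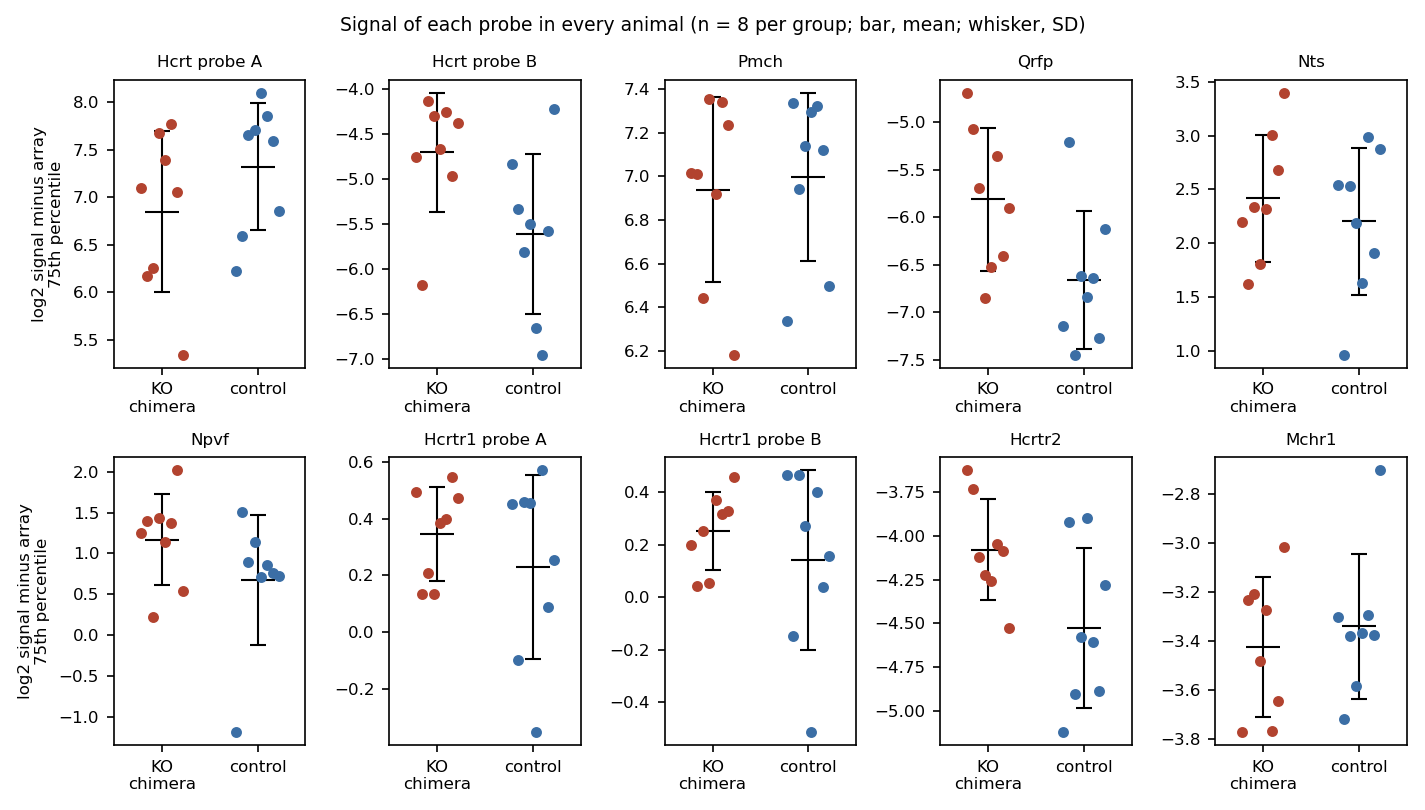
Each point is 1 animal and 1 probe, as log2 signal relative to the 75th percentile of its array (vertical axis), with KO chimeras left of control animals and bars for the group mean and SD. Hcrt probe A ran from 5.34 to 7.78 in KO chimeras and from 6.23 to 8.10 in control animals, and the groups overlap on every probe.

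Every level below is log2 of the processed signal minus the 75th percentile of the same array, so 0 is that percentile and 1 unit is a doubling, and every difference is KO chimera minus control. Levels of different probes are not set against each other, because each probe binds its target differently. In bulk tissue fewer cells of a type and less RNA per cell cannot be told apart.

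Hcrt, the orexin precursor, was on average lower in KO chimeras on probe A, by less than the spread between animals. Its levels in KO chimeras had a lowest value of 5.34, a median of 7.08 and a highest of 7.78, and in control animals 6.23, 7.63 and 8.10. The lowest 2 KO chimeras, numbers 8 and 2, lay below every control animal, and no KO chimera lay above the highest control. The means were 6.85 ± 0.85 in KO chimeras and 7.32 ± 0.67 in control animals (SD, n = 8 each). The difference of −0.48 (SE 0.35) had a 95% interval of −1.22 to 0.27, which spans 0.428 to 1.21-fold on the linear scale (limma adjusted p = 0.472, exact permutation p = 0.233). Leaving out 1 animal gave differences of −0.63 (without control animal 1) to −0.26 (without KO chimera 8).

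Hcrt probe B gave the opposite sign near background. It was well above background in 4 of 8 KO chimeras and 1 of 8 control animals, which left it out of the test over all probes. Its levels ran from −6.18 (median −4.52) to −4.14 in KO chimeras and from −6.95 (median −5.54) to −4.22 in control animals. The difference was 0.91 (exact permutation p = 0.0384, unadjusted), and with no filter on dim probes its adjusted p was 0.222 (limma). At this level the array itself leaned the same way: of the 11537 probes with a mean within 1 log2 unit of it, 78.3% were higher in KO chimeras, with a median difference of 0.31. Over the 16 animals, with group means removed, both Hcrt probes had a Pearson correlation of −0.283, given as a description with no test.

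Pmch, the MCH precursor, was close to even between the groups. Levels in KO chimeras had a lowest value of 6.18, a median of 7.01 and a highest of 7.36, and in control animals 6.34, 7.13 and 7.34. Both groups held most animals near 7 and a few well under it, which were KO chimeras 8 and 3 and control animals 1 and 8. The means were 6.94 ± 0.42 in KO chimeras and 7.0 ± 0.38 in control animals (SD, n = 8 each), a difference of −0.06 (SE 0.19, 95% interval −0.46 to 0.34, limma adjusted p = 0.888, exact permutation p = 0.752). The interval reaches from 0.727 to 1.27-fold. Leaving out 1 animal gave −0.15 (without control animal 1) to 0.05 (without KO chimera 8).

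Npvf, the precursor of the RFamide-related peptides, was higher on average in KO chimeras, and its interval includes 0. Levels had a lowest value of 0.22, a median of 1.31 and a highest of 2.02 in KO chimeras, and of −1.19, 0.81 and 1.5 in control animals. The lowest control animal, number 1, stood far under the other 7, and 6 of 8 KO chimeras lay above the control median. The means were 1.17 ± 0.56 in KO chimeras and 0.68 ± 0.80 in control animals (SD, n = 8 each), a difference of 0.49 (SE 0.32, 95% interval −0.18 to 1.17, limma adjusted p = 0.405, exact permutation p = 0.176). Without control animal 1 the difference was 0.23 (limma adjusted p = 0.597).

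Nts, the neurotensin precursor, spread over about the same range in both groups. Levels in KO chimeras had a lowest value of 1.62, a median of 2.32 and a highest of 3.40, and in control animals 0.96, 2.36 and 2.98. The medians nearly coincided, and the means of 2.42 ± 0.59 in KO chimeras and 2.2 ± 0.68 in control animals (SD, n = 8 each) differed by 0.22 (SE 0.29, 95% interval −0.41 to 0.84, limma adjusted p = 0.719, exact permutation p = 0.509). That difference was 0.04 without control animal 2, 0.08 without KO chimera 8 and 0.33 without KO chimera 2. Qrfp had no measured level: its probe was not well above background on any of the 16 arrays, and its readings of −6.85 to −4.70 in KO chimeras and −7.45 to −5.21 in control animals have no usable difference.

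Among the receptors, Hcrtr2 had the smallest p, and it passed the unadjusted test only. This receptor, which binds both orexins, is the one whose loss causes narcolepsy in dogs. Its levels in KO chimeras had a lowest value of −4.53, a median of −4.10 and a highest of −3.63, and in control animals −5.12, −4.59 and −3.90. All 8 KO chimeras lay above the control median, 2 of them above the highest control animal. The difference of 0.45 (SE 0.18, 95% interval 0.07 to 0.83) corresponds to 1.05 to 1.77-fold (limma p = 0.0238, adjusted p = 0.176, exact permutation p = 0.0365). The means were −4.08 ± 0.29 in KO chimeras and −4.53 ± 0.46 in control animals (SD, n = 8 each), and the probe was well above background on 6 KO chimera and 5 control arrays. Dim probes as a whole were shifted the same way, with 71.2% of the 10131 probes within 1 log2 unit of it higher in KO chimeras and a median difference of 0.17. When background was corrected with normexp instead, the difference was 0.15 (adjusted p = 0.716). It was 0.24 with quantile normalization, 0.32 with arrays aligned at their median and 0.23 from the authors' deposited values. In each of these the unadjusted limma p was over 0.05.

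Hcrtr1, the receptor that prefers orexin A, gave nearly the same readings on its overlapping probes, which correlated at r = 0.931 over the 16 animals with group means removed and differed by at most 0.30 in any animal. On probe A the levels ran from 0.13 to 0.55 in KO chimeras (mean 0.35 ± 0.17) and from −0.35 to 0.57 in control animals (mean 0.23 ± 0.32, SD, n = 8 each), and all KO chimeras fell inside the control range. The difference was 0.12 (SE 0.12, 95% interval −0.14 to 0.38, limma adjusted p = 0.63) on probe A and 0.11 (SE 0.13, adjusted p = 0.662) on probe B. Without control animal 5 the differences were 0.035 and 0.017. When arrays were aligned at their median, a change that moved the median of all probes by −0.127, the same differences were −0.01 and −0.02.

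Mchr1, the MCH receptor, averaged −3.43 ± 0.28 in KO chimeras and −3.34 ± 0.30 in control animals (SD, n = 8 each), a difference of −0.08 (SE 0.14, 95% interval −0.38 to 0.21, limma adjusted p = 0.773, exact permutation p = 0.578). Its readings ran from −3.77 to −3.02 in KO chimeras and from −3.72 to −2.71 in control animals, well above background on 7 KO chimera and 8 control arrays. The highest value was that of control animal 8, and without that animal the difference was 0.01.

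**Figure D2:**
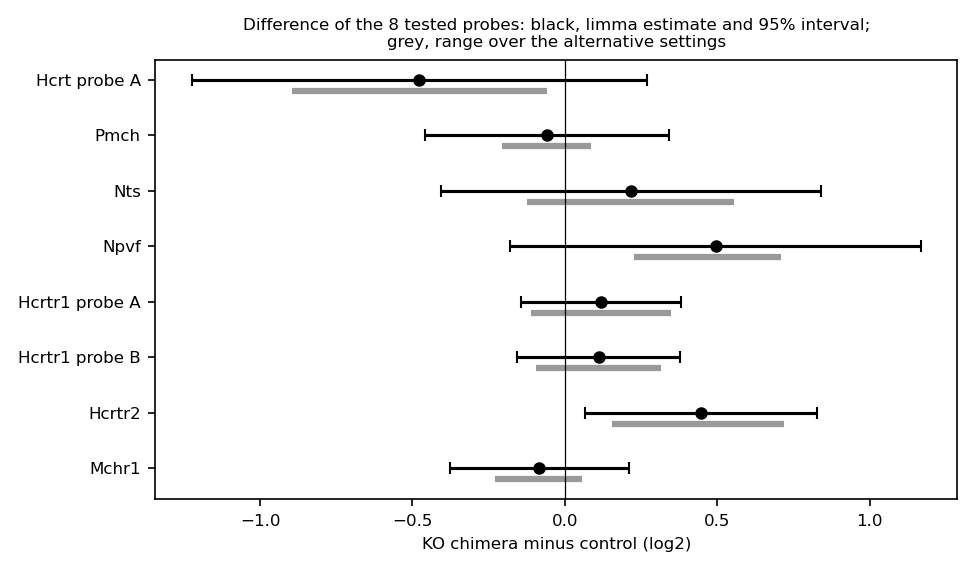
Points are the difference in mean log2 signal, KO chimera minus control, for each of the 8 tested probes (rows), with 95% intervals from limma on the horizontal axis. The interval of Hcrtr2, from 0.07 to 0.83, is the one that leaves out 0 before adjustment.

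Slide and scan day were the batches given in the files. There were 6 slides, both groups being present on 5 of them, and 2 scan days, each with 4 KO chimeras and 4 control animals. Across these 5 slides no tested probe held 1 direction throughout. Hcrt probe A was higher in KO chimeras within 2 slides and lower within 3, from −1.39 to 0.79. Within the first scan day its difference was −0.90 and within the second −0.06. Npvf was higher within 4 of 5 slides (−0.35 to 1.98), and by 0.28 and 0.71 within the days. Hcrtr2 was likewise higher within 4 of 5 slides (−0.19 to 1.04), and by 0.18 and 0.72 within the days. Nts differed by 0.56 within the first day and −0.12 within the second, Pmch by −0.21 and 0.09, Hcrtr1 probe A by 0.35 and −0.11, and Mchr1 by −0.07 and −0.10. On slides 4 and 5 these are differences between single animals. Slide 1 had 1 control animal, number 1, and slide 3 had 1 KO chimera. The highest values given for Hcrt probe A, Npvf and Hcrtr2 are those of slide 1 and rest on that control animal.

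**Figure D3:**
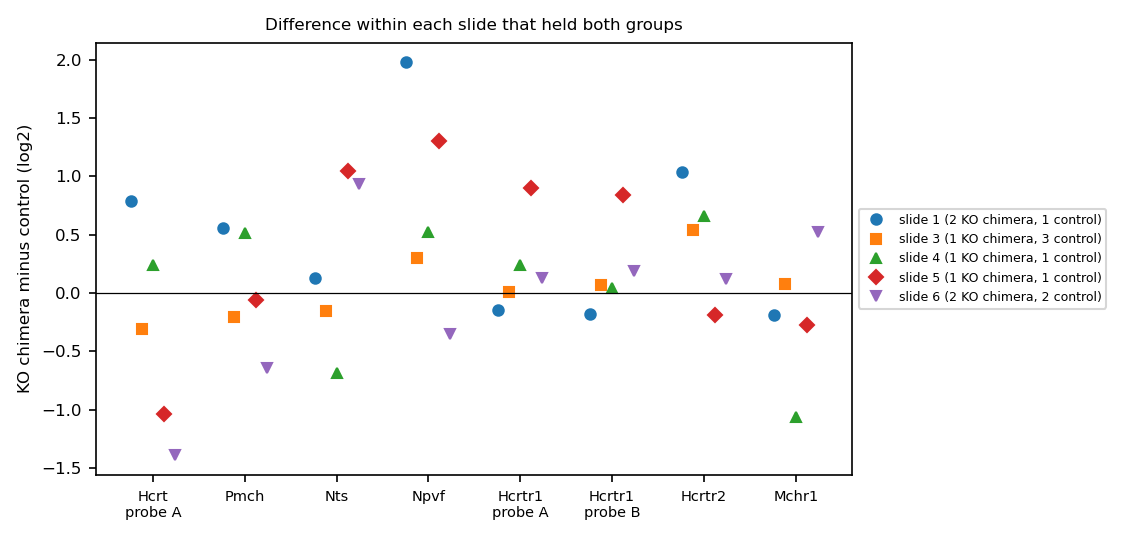
Each point is the KO chimera minus control difference in log2 signal within 1 of the 5 slides that held both groups (vertical axis), by probe. Hcrt probe A runs from −1.39 to 0.79 across the slides, and points of both signs appear for every tested probe.

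The spread between animals of the same group, rather than the gap between groups, was the larger feature of the peptide genes. The residual SD of Hcrt probe A, the SD between animals within groups, was 0.765, at the 98.4th percentile of all tested probes and the 99.8th of the 607 whose mean lay within 1 log2 unit of it, where the median SD was 0.154. Within the KO chimeras alone the highest and lowest Hcrt readings differed 5.4-fold. Nts (SD 0.637) and Npvf (SD 0.688) stood at the 99.7th and 99.5th percentiles of 5155 and 6746 probes of like level, and Pmch (SD 0.404) at the 93.2nd of 666. Hcrtr2 (SD 0.382) and Mchr1 (SD 0.290) stood at the 28.6th and 24.8th percentiles of theirs, and Hcrtr1 at the 84.0th. What this spread between animals comes from was not tested.

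Hcrt, Pmch and Npvf shared several of their lowest animals. Hcrt, Pmch and Npvf were all below their group means in KO chimeras 8 and 3 and in control animal 1, and in control animal 8 Hcrt and Pmch were low while Npvf was not. Hcrt was low in KO chimera 2 and control animal 2 as well, where the other 2 genes were not. In Pmch, KO chimeras 3 and 8 and control animals 1 and 8 stood apart, at −0.75 to −0.50 relative to their group means, while the other 12 lay from −0.06 to 0.42. Relations between genes were therefore taken over all 16 animals and, in a comparison added after the data were seen, over the 12. Among 21 pairs of 7 genes (1 probe per gene, group means removed, 100000 permutations, Benjamini-Hochberg adjustment over the pairs), 4 passed an adjusted p under 0.05 by Pearson's r and 5 by Spearman's rho. Permutation p-values, here and for marker scores, treat the 16 animals as independent. With the replicate number as a block, the residual SD fell for Nts (0.637 to 0.347), Hcrt (0.765 to 0.547) and Pmch (0.404 to 0.278), but not for Npvf, Hcrtr1 or Hcrtr2. If same-numbered animals share a source of spread, which was not tested, these p-values can be too small.

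Hcrt and Pmch had r = 0.775 and rho = 0.629 over the 16 animals (permutation p = 0.00072, adjusted 0.00707, and p = 0.0106, adjusted 0.0445). Without KO chimera 8 and control animal 1 r was 0.562, and among the other 12 it was 0.245 (permutation p = 0.444, unadjusted). Since the 4 animals were set aside by their Pmch level, the 12 span less of its range, which lowers r with Pmch by construction. Pmch and Npvf had r = 0.778 and rho = 0.70 (permutation p = 0.0004, adjusted 0.00707, and p = 0.00329, adjusted 0.0311), 0.659 without KO chimera 8 and control animal 1, and 0.382 among the 12 (permutation p = 0.229, unadjusted). Pmch and its receptor gene Mchr1 ran opposite, with r = −0.709 and rho = −0.688 (permutation p = 0.00204, adjusted 0.0107, and p = 0.00444, adjusted 0.0311). It had r = −0.737 without KO chimera 8 and control animal 1, −0.398 among the 12 (permutation p = 0.199, unadjusted), and over the 16 animals r = −0.265 with normexp background correction (adjusted p = 0.477). Hcrt and Npvf themselves had r = 0.509 and rho = 0.226 (permutation p = 0.0395, adjusted 0.104, and p = 0.397, adjusted 0.556), 0.099 without KO chimera 8 and control animal 1, and −0.482 among the 12 (permutation p = 0.0921, unadjusted). Npvf and Mchr1, the pair that passed by rho alone, had r = −0.424 and rho = −0.632 (permutation p = 0.102, adjusted 0.179, and p = 0.01, adjusted 0.0445). The within-day values were 0.674 and 0.956 for Hcrt with Pmch, and 0.799 and 0.903 for Pmch with Npvf, over 8 animals a day that include the low ones.

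Nts and Hcrtr1 varied together, also among the 12. Over 16 animals r was 0.738 and rho 0.721 (permutation p = 0.00101, adjusted 0.00707, and p = 0.00226, adjusted 0.0311). It was 0.726 without control animal 2 and KO chimera 8, the farthest from the Nts median, and 0.795 among the 12 (permutation p = 0.00222, unadjusted). Within KO chimeras r was 0.707, within control animals 0.784, and within the scan days 0.665 and 0.872. Control animals 2 and 5 were low in both genes, and control animal 6 high in both. The scores of pituitary and of ependyma and tanycytes ran opposite to these genes. The pituitary score rests partly on signal near background. Gh was well above it on 10 of 16 arrays and Prl on 8, against 16 for Lhb. Over 16 animals with group means removed, the pituitary score (Gh, Prl and Lhb) had r = −0.757 and rho = −0.726 with Hcrtr1 (permutation p = 0.00058, adjusted 0.0328, and p = 0.00204, adjusted 0.0643) and r = −0.597 and rho = −0.612 with Nts (permutation p = 0.0146, adjusted 0.229, and p = 0.0126, adjusted 0.265). The score of ependyma and tanycytes had r = −0.734 and rho = −0.576 with Nts (permutation p = 0.00104, adjusted 0.0328, and p = 0.0224, adjusted 0.353), and r = −0.436 and rho = −0.382 with Hcrtr1 (permutation p = 0.091, adjusted 0.633, and p = 0.144, adjusted 0.681). Leaving out the 2 animals farthest in each score gave −0.69 for Hcrtr1 and −0.578 for Nts with pituitary, and −0.468 for Nts and −0.174 for Hcrtr1 with ependyma and tanycytes. Nts and Pmch had r = −0.461 and rho = −0.388 over 16 animals (permutation p = 0.0728, adjusted 0.151, and p = 0.137, adjusted 0.321).

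**Figure D4:**
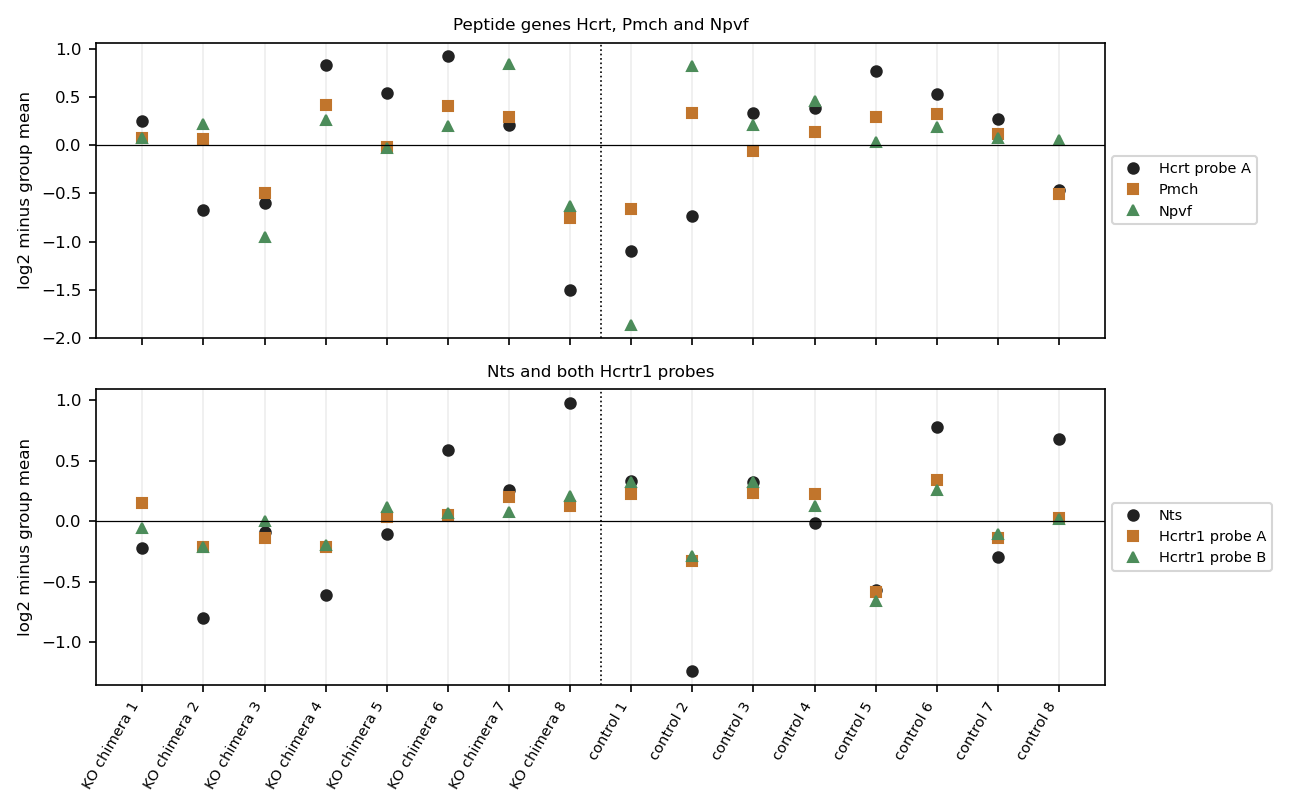
Each point is the log2 signal of 1 animal minus its group mean (vertical axis), with the 8 KO chimeras left of the 8 control animals, for Hcrt, Pmch and Npvf above and for Nts and both Hcrtr1 probes below. KO chimeras 3 and 8 and control animal 1 are low in all 3 genes of the upper panel, and control animals 2 and 5 are low in Nts and Hcrtr1 below.

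**Figure D5:**
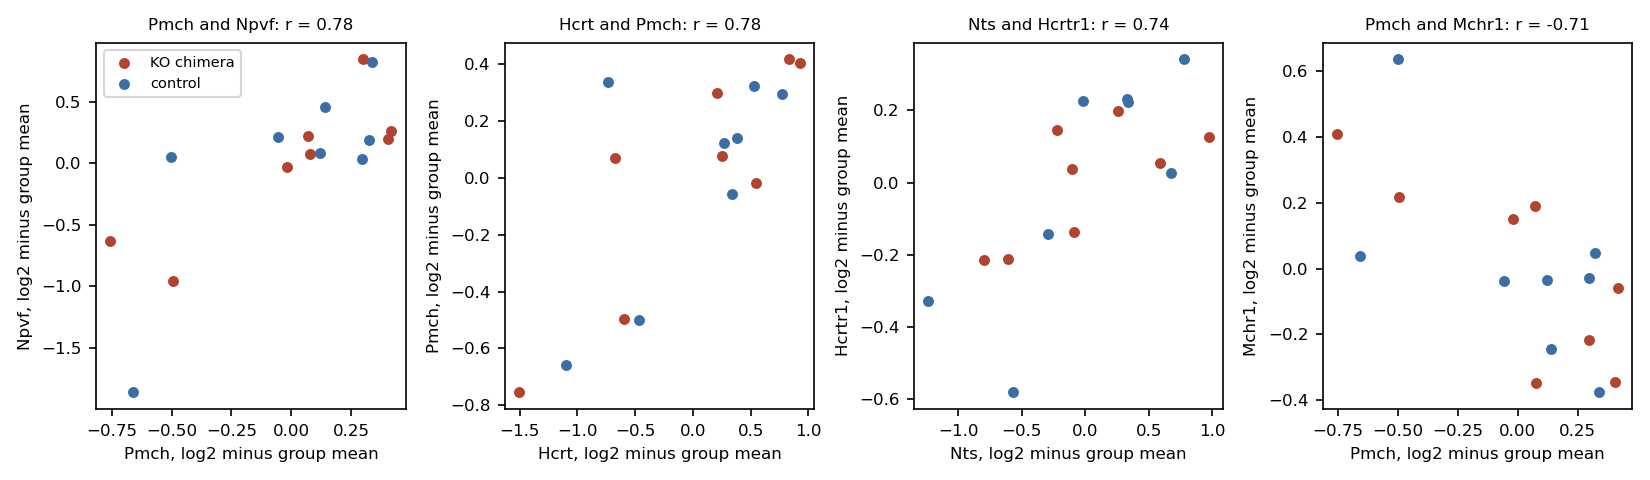
Each point is 1 animal, with log2 signal minus the group mean on both axes, for the pairs of genes named in the panels, KO chimeras and control animals marked apart. In the panels with Pmch the 4 animals between −0.75 and −0.50 stand away from the other 12, and in the panel of Nts and Hcrtr1 (r = 0.738) the points run from lower left to upper right.

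Markers of other parts of the brain were read in the same animals, as summed linear signal over a list, relative to the 75th percentile of the array. With 1 probe per gene, 2.84% of the 24363 genes or unnamed transcripts tested were called, 0.71% higher and 2.13% lower. The defining genes of hypothalamic nuclei outside the lateral area were measured, with 11 of 11 tested and the largest differences at 0.60 (Vip, adjusted p = 0.567) and 0.59 (Pomc, adjusted p = 0.176). Their sum ran from 142.1 to 431.8 in KO chimeras and 148.6 to 352.5 in control animals, with 0 of 11 called. Being linear, this sum mostly follows the brightest probe of the list, that of Oxt. Its mean log2 level was 7.57 in KO chimeras and 7.43 in control animals, against 4.82 and 4.96 for Avp, the next highest. KO chimera 3 (431.8) and control animal 1 (352.5), both low in Hcrt, Pmch and Npvf, had the highest sums of their groups, while KO chimera 8 had 194.1 and control animal 8 had 204.3. These sums therefore say little about the dimmer genes of the list. Thalamus markers ran lower in KO chimeras, with 11 of 12 differences below 0 (median −0.84), 1 called (Adarb1, −0.62, limma adjusted p = 0.0451) and sums of 26.9 to 54.6 in KO chimeras and 35.2 to 129.1 in control animals. Prkcd had the largest difference of that list at −1.88 (adjusted p = 0.0509). Oligodendrocyte markers had 9 of 11 differences below 0 and 2 above (Mbp and Ermn), with a median of −0.36. Of the 11, 4 were called, all lower (Mobp at −0.68, Mal, Mog and Cldn11). Their sums were 182.5 to 337.6 in KO chimeras and 237.4 to 356.7 in control animals. Ependyma and tanycyte markers had 0 of 8 called, all 8 above 0 with a median of 0.50 and the largest at 0.87 (Col23a1, adjusted p = 0.113), and sums of 15.3 to 28.5 in KO chimeras and 6.95 to 19.6 in control animals. Microglia markers had 1 of 8 called (Trem2, −0.42, adjusted p = 0.028) and the largest difference at −0.43 (Tyrobp, adjusted p = 0.0598), with sums of 28.2 to 31.9 in KO chimeras and 31.2 to 37.9 in control animals. Cortex, hippocampus and striatum (0 of 7 called, sums 2.95 to 3.77 in KO chimeras and 2.89 to 3.81 in control animals), astrocytes (0 of 6), choroid plexus (0 of 5) and pituitary (0 of 3, with Tshb, Cga and Pitx1 under the filter) held no call. Their largest differences were −0.44 (Tbr1, adjusted p = 0.456), −0.21 (Gfap, adjusted p = 0.34), −0.27 (Ttr, adjusted p = 0.924) and −0.76 (Prl, adjusted p = 0.65), in the same order. Relations of the 7 measured genes with the mean scores of these 9 lists over the 16 animals, computed after the data were seen, made 63 pairs, of which 2 passed an adjusted p under 0.05 by Pearson's r (Hcrtr1 with pituitary and Nts with ependyma and tanycytes, given above), 0 by Spearman's rho, and 4 had an unadjusted p under 0.05. The other of these 4 beside Nts with pituitary was Hcrt with oligodendrocytes, at r = 0.617 and rho = 0.744 (permutation p = 0.0105, adjusted 0.221, and p = 0.0015, adjusted 0.0643), 0.541 without control animals 5 and 2. Hcrt had r = −0.427 and rho = −0.332 with the other hypothalamic nuclei (permutation p = 0.0989, adjusted 0.633, and p = 0.21, adjusted 0.681). Whether these shifts have a part in the group differences of the peptide and receptor genes was not tested.

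The genes whose pattern over the 16 animals was most like a peptide gene were ranked among 15513 genes with a symbol by Pearson's r of group-centred values, as a description without a test. For Hcrt these were Mgarp (r = 0.884), Sclt1 (r = 0.802) and Sapcd2 (r = 0.77). Mgarp was, like Hcrt, lower on average in KO chimeras, with a difference of −0.78 (SE 0.34, limma adjusted p = 0.21). For Pmch they were Lars (r = 0.874), Ncmap (r = 0.835) and Trmt11 (r = 0.817). For Nts they were Ppp1r37 (r = 0.877) and the transcription factor genes Eomes (r = 0.873) and Lhx8 (r = 0.857), of which Eomes differed by 0.71 (SE 0.47, adjusted p = 0.422). For Npvf they were Vgll2 (r = 0.896), Cd2 (r = 0.846) and Sp5 (r = 0.832). None of these 12 genes was called, the smallest adjusted p being 0.0705 for Sclt1 (difference 0.34, SE 0.10).

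Other genes of the same peptide systems were read from lists, with 1 probe per gene. The shares called over all 24363 are those given for the markers, and the median difference over them was 0.0002. Among the other receptors of these peptides 1 of 6 was called. Sort1 (sortilin, which binds neurotensin and sorts proteins inside cells) averaged 2.16 ± 0.12 in KO chimeras and 2.68 ± 0.17 in control animals (SD, n = 8 each), and thus fell by 0.52 (SE 0.08, limma adjusted p = 0.00732). It stayed called without each single animal (adjusted p 0.0115 to 0.0196). The G protein-coupled neurotensin receptor genes did not pass: Ntsr1 differed by −0.11 (adjusted p = 0.515) and Ntsr2 by −0.11 (adjusted p = 0.51). The list's median was −0.11, and the other 3 members, the receptor genes Qrfpr, Npffr1 and Npffr2, differed by −0.10 to 0.12.

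Genes known to be enriched in orexin neurons had 0 of 7 called (median −0.16), with 5 differences below 0 and 2 above. The largest was that of Lhx9, at −0.73 (SE 0.35, limma adjusted p = 0.255). Slc17a6, the vesicular glutamate transporter that these excitatory neurons use, differed by −0.38 (limma adjusted p = 0.0846) and Rfx4, a transcription factor gene, by 0.21 (adjusted p = 0.171). Both are expressed well beyond orexin neurons, and whether the Lhx9 signal comes from orexin neurons alone was not tested. Genes enriched in MCH neurons had 0 of 3 called (median 0.04), with Cartpt, a peptide that many MCH neurons also make, at 0.26 (adjusted p = 0.213) and Tacr3, a neurokinin receptor gene, at −0.08 (adjusted p = 0.697). Genes that cut and finish peptide precursors had 0 of 6 called (median −0.04). The carboxypeptidase gene Cpe differed by −0.28 (adjusted p = 0.0689) and Scg5, a chaperone of a precursor-cutting enzyme, by −0.08 (adjusted p = 0.376).

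The other peptides of the lateral and dorsomedial hypothalamus had 0 of 9 called (median 0.05). Cck, cholecystokinin, which thalamus and cortex also express, differed by −1.17 (SE 0.38, limma adjusted p = 0.101), with means of 3.83 ± 0.87 in KO chimeras and 5.0 ± 0.80 in control animals (SD, n = 8 each). Gal, galanin, differed by 0.32 (adjusted p = 0.135). Of the genes of histamine neurons and histamine receptors, a second arousal system, 6 of 7 were tested and 1 was called. Hrh3, the receptor through which histamine holds back its own release, averaged 3.33 ± 0.16 in KO chimeras and 3.8 ± 0.28 in control animals (SD, n = 8 each), and thus fell by 0.47 (SE 0.11, limma adjusted p = 0.0374). Its call was lost in 10 of the 16 fits without 1 animal: without control animals 1 (adjusted p = 0.0524), 3 (0.0553), 5 (0.0789) and 7 (0.071) and without KO chimeras 1 (0.0517), 2 (0.0633), 4 (0.0625), 5 (0.0569), 6 (0.0697) and 8 (0.0568). Maob, which breaks down the product of histamine methylation, differed by −0.44 (adjusted p = 0.123), and Hdc, which makes histamine, had 1.91 ± 0.68 in KO chimeras and 1.25 ± 1.01 in control animals (difference 0.66, SE 0.40, adjusted p = 0.365).

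Promoters are shown for Hcrt, Pmch and Npvf, the genes in which a TATA box motif was found. The sequences are RefSeq's in GRCm38.p6, 250 bases before to 50 after each gene's start, 5′ to 3′ on the strand of the gene. All 8 genes matched, with 10 promoters between them. The motif TATAAA, chosen after the sequences had been looked at, was found on the gene's strand in 3 of the 10 and on the other strand in 0, and stands in capitals. Hcrt lies at chr11:100762882-100763181 on the minus strand, Pmch at chr10:88090822-88091121 on the plus strand and Npvf at chr6:50654396-50654695 on the minus strand.
Hcrt: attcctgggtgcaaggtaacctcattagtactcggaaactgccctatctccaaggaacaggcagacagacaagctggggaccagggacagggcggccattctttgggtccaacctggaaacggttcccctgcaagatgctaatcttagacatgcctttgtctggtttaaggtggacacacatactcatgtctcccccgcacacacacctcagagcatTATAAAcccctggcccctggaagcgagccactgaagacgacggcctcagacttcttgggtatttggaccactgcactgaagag
Pmch: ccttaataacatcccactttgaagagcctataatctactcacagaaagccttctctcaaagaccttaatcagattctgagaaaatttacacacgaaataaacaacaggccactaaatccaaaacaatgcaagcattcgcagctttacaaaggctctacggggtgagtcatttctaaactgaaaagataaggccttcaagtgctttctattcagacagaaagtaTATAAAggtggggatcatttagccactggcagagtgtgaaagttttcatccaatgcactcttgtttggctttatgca
Npvf: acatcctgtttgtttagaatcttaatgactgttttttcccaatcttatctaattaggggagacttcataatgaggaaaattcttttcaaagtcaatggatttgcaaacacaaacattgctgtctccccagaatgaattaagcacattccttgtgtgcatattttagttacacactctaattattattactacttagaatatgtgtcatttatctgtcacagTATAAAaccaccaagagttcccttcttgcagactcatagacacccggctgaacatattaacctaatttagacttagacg
TATAAA began 33 bases before the start in Hcrt, 27 in Pmch and 29 in Npvf. The motif stood on the gene's strand in 8.32% of the 32851 promoters that RefSeq's set holds, on either strand in 13.6%, and began 20 to 40 bases before the start in 1.99%. A match is a description of these letters. No exact TATAAA was found in this window for Nts, Qrfp, Hcrtr1, Hcrtr2 or Mchr1. Other forms of the TATA box were not searched for, so this does not show that these promoters lack one.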

How the data were processed

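Total RNA from hypothalamus of 16 mice was labelled with Cy3, 1 animal per array. The authors deposited 1 scanner file per array. The submitters' processing notes name Agilent Feature Extraction 10.7. Its processed intensity has background subtracted, per the file headers. The authors' deposited value table is in log2, by a normalization not given in the sources. Over its brighter spots, 30820 to 31053 per array, it correlated with the scanner's log2 intensity at r of at least 0.9996. Dimmer spots were left out of that correlation. The table's medians lay between 5.21 and 5.26, and 22.1% to 23.2% of its values per array stood at its lowest, 2.2. It served as an alternative.

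Control spots and spots marked as outliers were left out, and the log2 intensity of each remaining spot was set relative to the 75th percentile of its array before repeated spots were averaged. Per array, 27276 to 43248 of 59305 non-control spots were well above background. Precision is limited by the number of arrays. The spike-in line of control animal 8 had an R2 of 0. Probes well above background on at least 8 arrays were kept, 35144 after 3 with too few unmarked values were dropped. Groups were tested with limma 3.58.1 in R 4.3.3 (lmFit, eBayes), and p-values were adjusted over all these probes by Benjamini-Hochberg. Each array holds a separate animal. Of the probes, 28026 got their gene name by RefSeq accession, 3418 by a symbol in current use, 295 by an earlier symbol, and 23942 retained the files' own. For 1 animal, a KO chimera, the title has a zero for the letter O, so the group came from the source name. The labels give no pairing of animals by replicate number, and 3 of 8 same-numbered pairs correlated above 0.1.

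The genes and lists were chosen with earlier results of these data known. The text names every gene of the set, each called gene of a pathway list or otherwise the 2 with the smallest p, the 3 genes most like each peptide gene (symbols that are only placeholders left out), and the 1 or 2 markers of a list with the largest difference. Called markers and further list genes were named after their values were seen. The script was tested on simulated data. Figures used Python 3.11.15 and matplotlib 3.10.9.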

Additional observations from a re-analysis of the deposited data

Results flagged for a closer look

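In 3 of 20 groups of 8 animals (10 probes, KO chimeras and control animals) 1 animal lay far from the other 7 relative to the group's range, where chance flags about 1 in 20 groups. Npvf was at −1.186 in control animal 1, against 0.715 to 1.503 in the other control animals. Mchr1 was at −2.705 in control animal 8, against −3.718 to −3.294 in the other control animals. That array also had the most spots well above background. Hcrt probe B was at −6.178 in KO chimera 2, against −4.963 to −4.136 in the other KO chimeras, on a probe near background. What set these animals apart was not tested.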

How the results depend on the processing

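No peptide or receptor probe was called under any of the 34 alternatives. The difference of Hcrt probe A stayed below 0 in all of them (−0.895 to −0.059), and those of Npvf (0.228 to 0.708) and Hcrtr2 (0.154 to 0.717, adjusted p 0.0715 to 0.79, unadjusted p under 0.05 in 26 of 33) stayed above 0. The unadjusted Hcrtr2 result depended on the scaling of the arrays and, near the threshold, on single animals. Its unadjusted limma p was 0.194 with quantile normalization, 0.085 with the array median, 0.381 with normexp and 0.202 from the deposited table. It was 0.0529 without control animal 1, 0.0504 without KO chimera 1 and 0.47 within the first scan day. Signs turned for Pmch within the second scan day (0.086), with array weights (0.04) and without KO chimera 3 (0.011) or 8 (0.048), in a range of −0.154 to 0.048 over the fits without 1 animal. They turned for Nts within the second scan day (−0.123), for Hcrtr1 probes A and B with the array median (−0.009 and −0.017) and within the second scan day (−0.111 and −0.094), and for Mchr1 with normexp (0.037), without control animal 8 (0.007, in a range of −0.142 to 0.007) and without both arrays of slide 4 (0.056). All these values lie within the 95% intervals given above for the same probes, and the cause was not tested.

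Over all probes the number called was 908 here, 532 with quantile normalization, 4509 with the array median, 213 with normexp, 552 from the deposited table, 459 with no filter on dim probes (52.5% higher), 1503 with probes above background on all 16 arrays, 251 with the slide as a fixed block, 1444 as a random block, 1471 with trend and robust settings, 1407 with array weights and 2520 at a threshold of 0.1. Within each scan day limma called 0 (3791 and 4821 at an unadjusted p under 0.05), with 4 animals a group. Leaving out 1 animal gave 268 to 1120, with a count more than 1.5 times smaller without control animals 1 (504), 2 (588), 3 (587), 5 (268) or 7 (287) and KO chimeras 2 (348), 4 (441), 6 (308) or 7 (499). With the replicate number as a block 700 were called (41.9% higher) and 0 of the 8 probes described here. The numbers are not a pairing given by the labels, and 1 of 8 KO chimeras correlated best with its own number. This block took the residual SD from 0.637 to 0.347 for Nts, 0.765 to 0.547 for Hcrt probe A and 0.404 to 0.278 for Pmch. For Mchr1 it went from 0.290 to 0.245, for Npvf it stayed at 0.69, and for Hcrtr2 it rose from 0.382 to 0.427. For Hcrtr1 probe A it was 0.257 and 0.259. Whether same-numbered animals share a source of spread was not tested. Of the pathway lists 2 genes were called here, 8 with the array median, 4 at a threshold of 0.1, 1 with quantile normalization, with normexp, from the deposited table, with no filter on dim probes and with the slide as a fixed block, 0 within each scan day, and 1 to 3 without 1 animal. Sort1 was among those called in 32 of 34 alternatives and Hrh3 in 16.

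With slide means removed as well, 10 of 21 pairs of genes passed in place of 4. Removing them sets the only animal of slide 2 to 0. It also makes the KO chimera and the control animal on slide 4, and those on slide 5, mirror each other. The permutation treated all 16 values as independent, so its p-values are too small here. The 10 is therefore not a sign of stronger relations. The correlation of Hcrt and Npvf turned to −0.482 without the 4 animals lowest in Pmch, a setting chosen after the data were seen. Signal near background limits Qrfp (above it on 0 of 16 arrays), Hcrt probe B, Hcrtr2 and Mchr1, at whose levels 69.2% to 90.7% of probes were higher in KO chimeras. It also limits Gh and Prl in the pituitary score.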
